A study of Mus musculus with 6 samples.

Results

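Of the 14366 genes in the deposited expression table, 7 are described here across all 6 libraries: Dlk1, Cdkn1c, Peg3, Mest, Plagl1, Grb10 and Ndn. They were chosen by name as imprinted genes that act on growth in embryonic mesenchyme, and all 7 were present in the table and passed the filter on low values. The libraries were made from the mesonephros of male mouse embryos at embryonic day 16.5, the tissue that holds the Wolffian duct, its mesenchyme and the mesonephric tubules and that gives rise to the epididymis. The 3 controls had the genotype Osr2Cre+;Gata2-flox/+, and the 3 Gata2cKO samples had Osr2Cre+;Gata2-flox/flox. Every embryo therefore carried the Osr2-driven recombinase and at least 1 floxed allele of Gata2, a zinc finger transcription factor gene, and the controls kept an unfloxed allele. Recombination was directed to cells that express Osr2, a gene of mesenchyme. The values used here do not show in which cells of the dissected tissue it took place. No label tells whether the samples of a group are separate embryos, so a p-value here reflects only how much these samples varied, which may be technical.

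An imprinted gene is transcribed mainly from the copy inherited from one parent, and the parental copies differ in DNA methylation at a control region. In the mouse, Dlk1, Peg3, Mest, Plagl1 and Ndn are active on the paternal copy, and Cdkn1c is active on the maternal copy. Grb10 is active on the maternal copy in most tissues and on the paternal copy in neurons, from different promoters. Many such genes are abundant in fetal mesenchyme and fall to low levels after birth. Dlk1 encodes a transmembrane protein with EGF-like repeats that holds precursor cells undifferentiated, and Cdkn1c encodes the cyclin-dependent kinase inhibitor p57. Peg3 and Plagl1 encode zinc finger proteins, Mest a protein of the alpha/beta hydrolase family, Grb10 an adaptor that dampens insulin and IGF receptor signalling, and Ndn the MAGE family protein necdin. In the mouse, Plagl1 is known as a regulator within a network of co-expressed imprinted genes. Gene-level values do not show which parental copy the RNA came from.

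The methylation that marks an imprint lies on CG dinucleotides, at a promoter for some imprinted genes and between genes for the cluster of Dlk1. The promoter windows of the members whose levels the results turn on are shown with each CG in capitals. Each window runs from 250 bases before to 50 bases after a transcription start in RefSeq (GRCm38.p6) and is written 5′ to 3′ on the gene's own strand, which is the plus strand for these 3 genes. Of the 3 Mest windows in RefSeq, 1 of the 2 nearly identical downstream ones is printed. The Mest window is at chr6:30737800-30738099, the Plagl1 window at chr10:13090582-13090881 and the Dlk1 window at chr12:109452573-109452872.
Mest: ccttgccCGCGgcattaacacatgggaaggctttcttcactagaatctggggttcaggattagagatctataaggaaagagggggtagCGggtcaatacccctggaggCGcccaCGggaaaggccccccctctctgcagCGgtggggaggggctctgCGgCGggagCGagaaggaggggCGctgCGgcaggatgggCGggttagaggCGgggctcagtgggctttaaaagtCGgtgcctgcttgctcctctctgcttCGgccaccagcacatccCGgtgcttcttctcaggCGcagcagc
Plagl1: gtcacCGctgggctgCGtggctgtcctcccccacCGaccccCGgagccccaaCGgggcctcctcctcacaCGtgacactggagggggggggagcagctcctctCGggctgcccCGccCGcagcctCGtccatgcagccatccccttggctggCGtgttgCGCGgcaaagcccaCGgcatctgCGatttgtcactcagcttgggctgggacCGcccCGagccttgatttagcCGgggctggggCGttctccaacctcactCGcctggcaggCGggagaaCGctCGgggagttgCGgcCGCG
Dlk1: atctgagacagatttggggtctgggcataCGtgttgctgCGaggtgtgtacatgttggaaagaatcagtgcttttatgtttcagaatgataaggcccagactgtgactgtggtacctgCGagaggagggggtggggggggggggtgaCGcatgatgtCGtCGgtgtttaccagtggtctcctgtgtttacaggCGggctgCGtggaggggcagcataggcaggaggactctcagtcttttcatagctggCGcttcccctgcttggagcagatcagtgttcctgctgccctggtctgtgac

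The windows held 17 CG dinucleotides for Mest, 26 for Plagl1 and 9 for Dlk1, against a median of 7 over 32851 windows of 300 bases. RefSeq gave 9 windows for 6 members, and the member counts ran from 8 in the upstream Mest window to 45 in a Grb10 window. The motif bound by GATA factors was searched on both strands in 4 spellings, namely AGATAA, its variant AGATAG, the spelling TGATAA and its variant TGATAG, with overlapping matches counted. It matched once in the Dlk1 window, as TGATAA 164 bases before the start, and once in the downstream Grb10 window, as AGATAG 103 bases before the start. Such a match was found in 29.8% of all windows. The motif GGGGCCCC, which reads the same on both strands and is known to bind the Plagl1 protein, matched once among the members, in the Peg3 window 201 bases before the start, against 1.08% of all windows. These matches describe letters and were not linked to binding.

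Among the 7 genes, Mest rose in Gata2cKO and none of the others passed the threshold in the limma fit. The second largest log2 fold change was in the other direction, with Plagl1 lower in every Gata2cKO library, and the authors' deposited table calls both Mest and Plagl1. Peg3 and Grb10 were higher in every Gata2cKO library, with mean ratios of 1.13 and 1.15, without passing the test. Dlk1, Cdkn1c and Ndn had overlapping groups. Levels are TPM (each gene's RNA corrected for its length and for the sum of the library), and differences are Gata2cKO over control on the log2(TPM + 1) scale with p-values adjusted over the 12300 genes tested.

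Levels differed widely between the members. Dlk1 and Cdkn1c ranked 85 and 93 of the 14366 genes by mean TPM, Ndn 185, Peg3 360, Mest 415, Grb10 1545 and Plagl1 1794. Together the 7 genes made up between 0.449% and 0.535% of the TPM in controls and between 0.463% and 0.540% in Gata2cKO, so their summed share overlapped between the groups. The highest neighbours in this order, Dlk1 and Cdkn1c, overlapped in both groups. Peg3 lay above Mest within each library of both groups. Their ranges were apart in controls and overlapped in Gata2cKO. Plagl1 and Grb10 overlapped in controls, while in Gata2cKO every Grb10 value lay above every Plagl1 value. These orders and ranges are descriptions and were not tested.

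**Figure D1:**
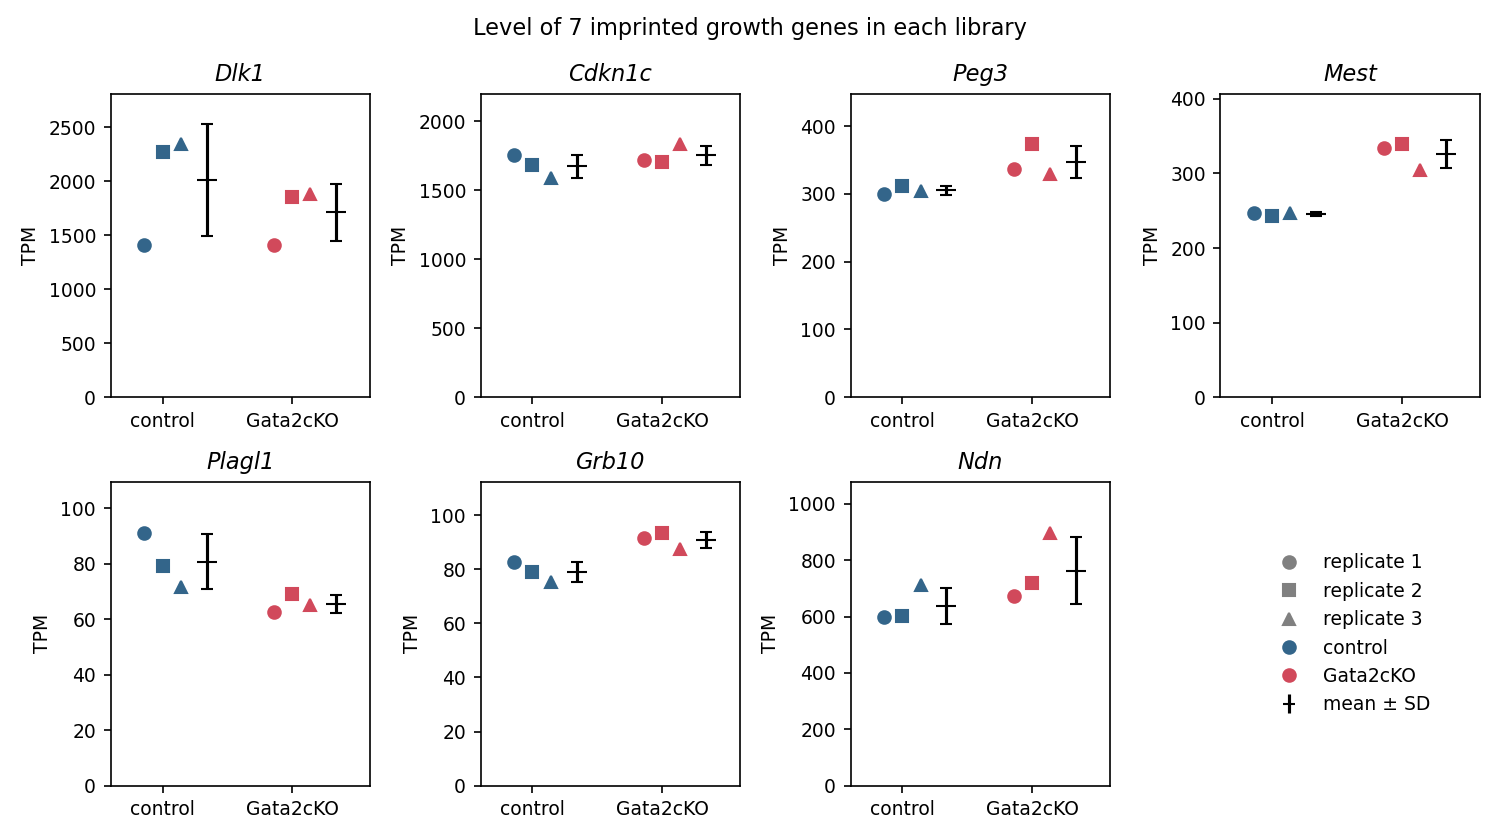
TPM (vertical axes, from 0) of each of the 7 genes in the 3 control and 3 Gata2cKO libraries, with 1 symbol per library and the mean with its SD beside them. Mest, Peg3 and Grb10 are higher and Plagl1 is lower in all 3 Gata2cKO libraries, and Dlk1 is lowest in replicate 1 of each group.

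Mest lies on chromosome 6 from 30723547 to 30748465 (GRCm38, plus strand). Controls 1 to 3 held it at 247, 242 and 247 TPM, and Gata2cKO libraries 1 to 3 at 335, 339 and 305 TPM. All 3 Gata2cKO libraries were higher than all 3 controls, and the coefficient of variation of the controls was 1.12%. The means were 246 ± 2.76 and 326 ± 18.7 TPM (SD, n = 3 each), a 1.33-fold rise. On the log2 scale Mest rose by 0.41 (SE 0.08, 95% interval 0.23 to 0.59, limma adjusted p = 0.0272). The rise is 0.35 in the authors' deposited table, with an adjusted p of 0.000190. In limma the call held without control replicate 1 (adjusted p = 0.0185) and was lost in each of the other 5 removals of a library, with adjusted p from 0.0674 without Gata2cKO replicate 3 to 0.120 without Gata2cKO replicate 1, while the log2 fold change stayed between 0.38 and 0.45.

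Plagl1 lies on chromosome 10 from 13060504 to 13131694 (plus strand). It was measured at 91.2, 79.4 and 71.6 TPM in controls 1 to 3, against 62.6, 69.0 and 65.3 TPM in Gata2cKO libraries 1 to 3. The groups did not overlap, although the lowest control lay close to the highest Gata2cKO library. The means were 80.7 ± 9.89 and 65.6 ± 3.20 TPM (SD, n = 3 each), a ratio of 0.813. The log2 fold change was -0.29 (SE 0.10, 95% interval -0.53 to -0.05, limma adjusted p = 0.122). In the authors' deposited table it is -0.36 with an adjusted p of 0.00654, so this gene lies on different sides of the threshold in the 2 analyses. Without control replicate 1, the highest library, the log2 fold change was -0.20 (limma adjusted p = 0.150).

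The ratio of Mest to Plagl1 within a library does not depend on how the library was scaled. It was 2.71, 3.06 and 3.45 in controls 1 to 3, against 5.34, 4.92 and 4.67 in Gata2cKO libraries 1 to 3. The ranges did not overlap, with means of 3.07 ± 0.369 and 4.98 ± 0.341 (SD, n = 3 each). This pair was set side by side after the values were seen, so no test is given.

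Grb10 lies on chromosome 11 from 11930508 to 12038683 (minus strand). Controls 1 to 3 had 82.5, 78.9 and 75.2 TPM, and Gata2cKO libraries 1 to 3 had 91.4, 93.5 and 87.5 TPM. Every Gata2cKO value was above every control value, by a mean ratio of 1.15. The log2 fold change was 0.20 (SE 0.08, 95% interval 0.03 to 0.38) and did not pass (limma adjusted p = 0.137, and 0.0749 without control replicate 1). Peg3 lies on chromosome 7 from 6703892 to 6730431 (minus strand). For this gene the 3 controls read 299, 312 and 305 TPM, against 336, 374 and 330 TPM in the 3 Gata2cKO libraries, a mean ratio of 1.13. The groups did not overlap here either, and the log2 fold change of 0.18 (SE 0.08, 95% interval -0.01 to 0.37) did not pass (limma adjusted p = 0.199). In the authors' deposited table Grb10 and Peg3 have adjusted p-values of 0.233 and 0.330.

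Dlk1 lies on chromosome 12 from 109452823 to 109463336 (plus strand) and had the widest spread of the 7 genes in controls. It reached 1409, 2269 and 2343 TPM in controls 1 to 3, against 1407, 1849 and 1878 TPM in Gata2cKO libraries 1 to 3. Replicate 1 was the lowest library of each group, and the groups overlapped only through control replicate 1. The means were 2007 ± 519 and 1711 ± 264 TPM (SD, n = 3 each), with a log2 fold change of -0.21 (SE 0.21, 95% interval -0.70 to 0.29, limma adjusted p = 0.572). In the authors' deposited table it is -0.29 with an adjusted p of 0.253. This value depended on single libraries in both directions. Without control replicate 1 it was -0.44 (limma adjusted p = 0.0617), and without control replicate 2, control replicate 3 or Gata2cKO replicate 1 it was -0.098, -0.075 and -0.070 (adjusted p = 0.844, 0.867 and 0.898). The 2 low libraries were also those with the most mitochondrially encoded RNA in their group, 21.9% of the TPM in control replicate 1 against 16.3% and 14.2% in the other controls and 15.2% in Gata2cKO replicate 1 against 13.2% and 13.7%. Its part in the spread of Dlk1 was not tested.

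Cdkn1c lies on chromosome 7 from 143458339 to 143461050 (minus strand). Controls 1 to 3 showed 1754, 1680 and 1588 TPM, and Gata2cKO libraries 1 to 3 showed 1719, 1704 and 1834 TPM. The groups overlapped, and the log2 fold change of 0.07 (SE 0.09, 95% interval -0.13 to 0.27) did not pass (limma adjusted p = 0.658). Ndn lies on chromosome 7 from 62346569 to 62350262 (plus strand). Its controls stood at 598, 601 and 711 TPM, and its Gata2cKO libraries at 673, 718 and 898 TPM, in replicate order. Replicate 3 was the highest of each group and the groups overlapped, with a log2 fold change of 0.25 (SE 0.13, 95% interval -0.05 to 0.56, limma adjusted p = 0.254). Without Gata2cKO replicate 3 the value for Ndn was 0.13 (adjusted p = 0.577). For these the authors' deposited table has adjusted p-values of 0.971 for Cdkn1c and 0.316 for Ndn.

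**Figure D2:**
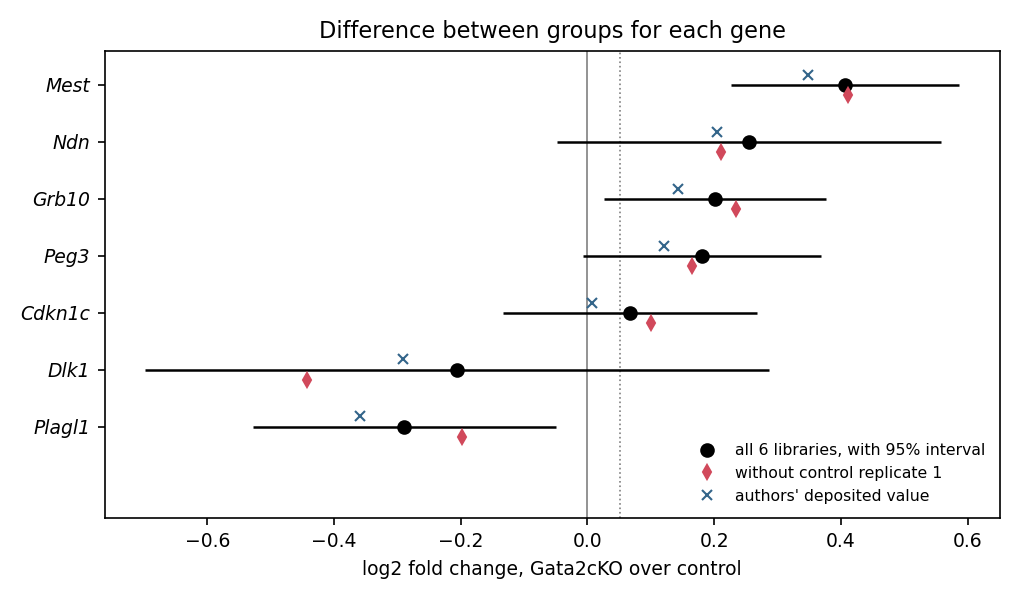
Log2 fold change of Gata2cKO over control (horizontal axis) for each gene, with the limma 95% interval as a line, the value without control replicate 1 as a diamond and the authors' deposited value as a cross. The dotted line marks the median of all tested genes (0.05). The interval of Mest lies wholly above that line, that of Plagl1 lies below 0, and Dlk1 moves from -0.21 to -0.44 when control replicate 1 is left out.

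As a group, 1 of the 7 members rose and 0 fell at a limma adjusted p under 0.05, and 3 of 7 had an unadjusted p under 0.05 (Mest, Plagl1 and Grb10), as had 27.4% of all tested genes. Over all tested genes 7.47% passed the adjusted threshold, 5.73% higher and 1.74% lower in Gata2cKO, so the count rests on a single gene and says nothing of the group. With median-of-ratios scaling the split of all called genes moved from 76.7% to 54.9% higher, and Mest still rose (log2 fold change 0.34, limma adjusted p = 0.0347). The groups did not overlap for 4 of the 7 members, 3 higher and 1 lower, against 33.9% of all tested genes (23.4% higher and 10.5% lower). The median log2 fold change of the members was 0.18, and that of all tested genes was 0.05. The authors' deposited table calls 2 of the 7, Mest higher and Plagl1 lower, against 13.3% of all its genes.

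Pearson correlations of log2(TPM + 1) over the 6 libraries were 0.94 between Mest and Grb10, 0.89 between Mest and Peg3 and 0.85 between Peg3 and Grb10. They were -0.76 between Mest and Plagl1 and -0.69 between Plagl1 and Ndn. Dlk1 was not close to any other member, with values from -0.59 with Grb10 to 0.18 with Ndn. All pairs share the same 6 libraries and the difference between the groups, so these values are descriptions.

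Each member was also set against the tested genes with a mean of 5 TPM or more to find those with the most similar pattern over the 6 libraries. With so many genes and 6 points the highest correlation is near 1 for any gene, and the names are given as a description. For Mest they were Mfsd1, a lysosomal membrane transporter gene (r = 0.9997), Id2, an inhibitor of basic helix-loop-helix factors (0.998), and Mmgt2 (0.996). Id2 rose from a mean of 416 to one of 608 TPM (limma adjusted p = 0.0128, and 0.0563 and 0.0704 without control replicate 2 and without Gata2cKO replicate 1). For Grb10 they were Wnt2b, which encodes a Wnt ligand (0.995), Thbs2, which encodes a thrombospondin (0.994), and Gnb5 (0.992). For Peg3 they were Arhgef15, Kif3c and Kctd5 (0.994, 0.992 and 0.992). For Plagl1 they were Znhit6, Zfp738 and Faim (0.991, 0.988 and 0.986). For Dlk1 they were Copz2, a coatomer subunit gene, Irf2bp2 and Zc3h15 (0.994, 0.989 and 0.988). For Cdkn1c they were Rpl30, Arsk and Prss23 (0.982, 0.974 and 0.974), and for Ndn Ccdc17, Ssc4d and Mrpl46 (0.997, 0.970 and 0.969).

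Imprinted genes often lie in clusters that share control regions, so the genes near each member were read from the same fit. Among 31 listed neighbouring genes, 21 were tested, 3 rose and 0 fell in limma (7.47% of all tested genes passed), and their median log2 fold change was 0.06. The authors' deposited table calls none of these 3 and 2 others of the 31, against 13.3% of all its genes. Those 2, Rtl1 and Begain, were both lower and both near Dlk1. The log2 fold changes of the tested neighbours ran from 0.02 to 0.96 for the 6 near Cdkn1c, from 0.16 to 0.60 for the 4 near Ndn and from -0.63 to 0.49 for the 3 near Dlk1. The 3 that rose were near Dlk1, Cdkn1c and Ndn, members that did not pass. Near Mest, Plagl1, Grb10 and Peg3 none of the 8 tested neighbours passed. Distances to the member differed widely. Of the 3 that rose, Phlda2 lies 40.5 kb from Cdkn1c, Mkrn3 67.3 kb from Ndn and Dio3 816 kb from Dlk1. The farthest of the 4 tested for Ndn is 3035 kb away. Not every one of these listed genes is itself imprinted.

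Near Dlk1, Dio3, which encodes the deiodinase that inactivates thyroid hormone, was at 17.9, 16.0 and 16.6 TPM in controls 1 to 3, against 23.1, 25.0 and 24.0 TPM in Gata2cKO libraries 1 to 3. Every Gata2cKO library was higher, and Dio3 rose by 0.49 on the log2 scale (SE 0.08, limma adjusted p = 0.0178). For Dio3 the authors' deposited table has an adjusted p of 0.245. Rtl1, a retrotransposon-derived gene between Dlk1 and Dio3, named after its values were seen, was at 45.5, 30.4 and 27.1 TPM in controls and 20.8, 20.6 and 22.3 TPM in Gata2cKO. All Gata2cKO libraries were lower, without passing in limma (log2 fold change -0.63, SE 0.17, adjusted p = 0.0687, and -0.42 with 0.0258 without control replicate 1), and the authors' deposited table calls it (adjusted p = 0.000658). Begain, likewise named after its values were seen, was at 10.8 ± 3.04 and 8.04 ± 0.303 TPM (SD, n = 3 each), with overlapping groups and an adjusted p of 0.262 in limma and 0.0459 in the authors' deposited table. The 3 paternally expressed genes of this cluster, Dlk1, Rtl1 and Dio3, thus had log2 fold changes of -0.21, -0.63 and 0.49. Rtl1 is known to have antisense transcripts from the maternal copy, and the sources used here do not state whether the counting used strand.

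Near Cdkn1c, Phlda2, a growth-restraining gene of the placenta that is also maternally expressed, was at 3.17, 5.67 and 5.996 TPM in controls 1 to 3, against 13.3, 9.99 and 8.15 TPM in Gata2cKO libraries 1 to 3. Every Gata2cKO library was higher (log2 fold change 0.96, SE 0.23), and the limma adjusted p of 0.0477 was close to the threshold. With all libraries kept, the call was lost with a pseudocount of 0.1 (adjusted p = 0.0513), without the filter (0.0663), with median-of-ratios scaling (0.0553) and with a replicate block (0.0582). For Phlda2 the authors' deposited table has an adjusted p of 0.173. The most abundant neighbour, the tetraspanin gene Cd81, was at 294 ± 16.0 and 332 ± 13.6 TPM (SD, n = 3 each) and did not pass (adjusted p = 0.205). Near Ndn, Mkrn3, an intronless gene for a ubiquitin ligase, was at 21.1, 22.6 and 19.3 TPM in controls and 32.1, 31.3 and 33.1 TPM in Gata2cKO. The groups did not overlap (log2 fold change 0.60, SE 0.08, limma adjusted p = 0.0122), and Mkrn3 has an adjusted p of 0.0558 in the authors' deposited table. When 1 library was left out, Mkrn3 lost its call in 2 of 6 removals and Dio3 and Phlda2 in 5 each (highest adjusted p 0.0605 and 0.149 without Gata2cKO replicate 1 for Mkrn3 and Phlda2, 0.0725 without control replicate 2 for Dio3). Copg2, which overlaps the end of Mest on the opposite strand, was at 3.82 TPM in controls and 4.18 TPM in Gata2cKO on average and did not pass (adjusted p = 0.451).

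**Figure D3:**
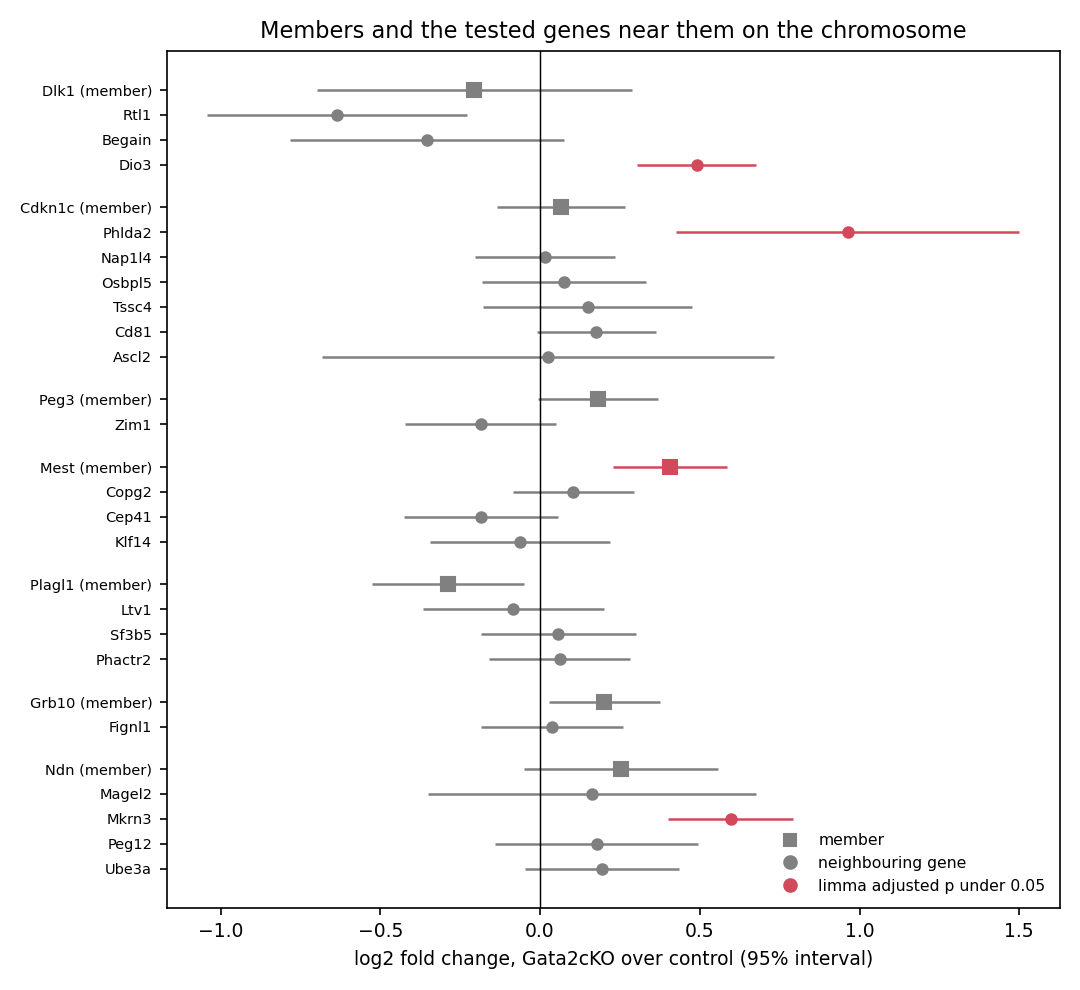
Log2 fold change of Gata2cKO over control with the limma 95% interval (horizontal axis) for each member (square) and the tested genes near it on the chromosome (circles), ordered by distance. Genes past a limma adjusted p of 0.05 are in red: Mest, and the neighbours Dio3, Phlda2 and Mkrn3. The members listed with these neighbours, Dlk1, Cdkn1c and Ndn, are not in red.

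Other genes reported as imprinted in some mouse tissue changed in both directions. Of 58 written, 52 were in the table and 39 were tested, of which 5 rose, 1 fell and 33 did not pass (15.4% called, against 7.47% of all genes). Their median log2 fold change was 0.13. Besides Mkrn3, Dio3 and Phlda2, the amino acid transporter gene Slc38a4 rose (16.1 ± 0.631 TPM in controls, 22.0 ± 0.738 TPM in Gata2cKO) and so did Gatm, an enzyme gene of creatine synthesis (3.29 ± 0.368 and 5.87 ± 0.736 TPM). Their limma adjusted p-values were 0.0212 and 0.0178, the errors are SD over 3 libraries, and the calls were lost in 5 and 4 of the 6 removals (highest adjusted p 0.104 and 0.0678, both without Gata2cKO replicate 1). Slc22a3, an organic cation transporter gene imprinted in placenta, fell from 1.72 ± 0.126 to 0.354 ± 0.0684 TPM (adjusted p = 0.00362) and kept its call in each of the 6 removals. It lay near the floor, passed the filter at 1 TPM only through the controls, and was not tested with the filter at 5 TPM. The most abundant gene of this list, Igf2, a paternally expressed growth factor gene, was at 2042, 2106 and 2245 TPM in controls 1 to 3, against 2361, 2653 and 2545 TPM in Gata2cKO libraries 1 to 3. Every Gata2cKO library was higher, and the gene did not pass (log2 fold change 0.24, SE 0.09, limma adjusted p = 0.142). Of this list the authors' deposited table calls 5 of 52, 2 higher and 3 lower, against 13.3% of all its genes.

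**Figure D4:**
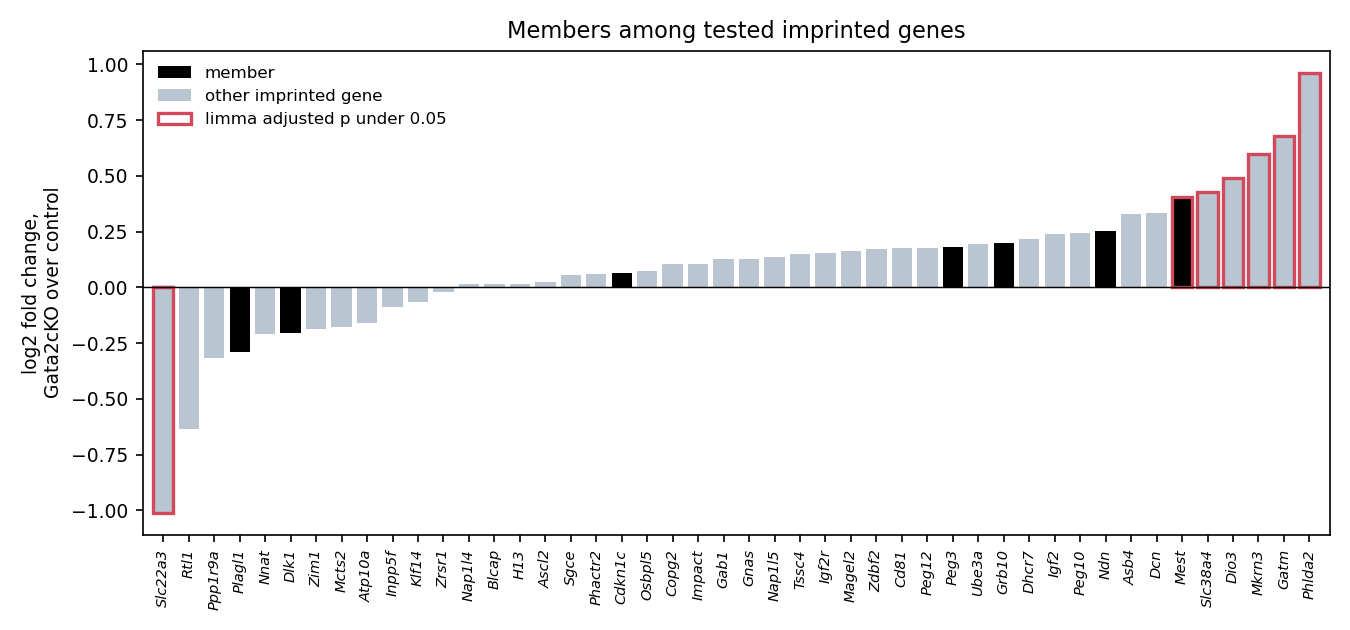
Log2 fold change of Gata2cKO over control (vertical axis) for the 7 members (black) and 39 other tested imprinted genes (grey), in rising order, with those past a limma adjusted p of 0.05 outlined in red. Mest (0.41) stands next to the 5 other imprinted genes that rose, and Plagl1 (-0.29) and Dlk1 (-0.21) are among the lower bars.

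Partners of the members in growth pathways showed 1 call among 50 tested genes, or 2%, against 7.47% of all tested genes. Of the 50, 37 had a positive and 13 a negative log2 fold change, with a median of 0.11. Over all tested genes 7321 were positive and 4979 negative, with a median of 0.05. Among insulin and IGF ligands, receptors and adaptors, the setting in which Grb10 acts, Igf1 rose and the other 13 did not pass. In this list 6 of 14 had an unadjusted p under 0.05 (27.4% of all tested genes). The authors' deposited table calls 2 of the 14, against 13.3% of all its genes. These are Igf1, higher (adjusted p = 2.2e-16), and Irs2, lower and named after its values were seen (adjusted p = 0.0138). Igf1, which encodes the ligand of the IGF1 receptor, was at 22.8, 23.4 and 22.6 TPM in controls 1 to 3, against 38.9, 40.3 and 40.02 TPM in Gata2cKO libraries 1 to 3, with no overlap (log2 fold change 0.77, SE 0.07, limma adjusted p = 0.00375). It kept its call in each of the 6 removals. Among cyclins, their kinases and kinase inhibitors, the setting of Cdkn1c, 0 of 17 passed in limma, with 3 at an unadjusted p under 0.05 (27.4% of all tested genes). The authors' deposited table calls 3 of the 17, against 13.3% of all its genes. The smallest p was that of the cyclin gene Ccne2, at 8.57 ± 2.19 and 12.96 ± 0.549 TPM (SD, n = 3 each, adjusted p = 0.0788, and 0.0306 without control replicate 1), and the most abundant was the kinase gene Cdk4, at 1038 ± 107 and 1075 ± 21.6 TPM.

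Among Notch receptors, ligands and targets, the pathway that Dlk1 is known to act on, 0 of 13 passed in limma, 2 had an unadjusted p under 0.05 (27.4% of all tested genes) and 0 were called in the authors' deposited table. The target gene Hey1 was at 22.7 ± 6.11 and 30.7 ± 0.429 TPM (SD, n = 3 each) with a limma adjusted p of 0.160, and the most abundant, the target gene Hes1, was at 128 ± 12.3 and 145 ± 13.6 TPM (adjusted p = 0.332). Of the relatives of Plagl1 and Ndn in the PLAG and MAGE families 0 of 6 passed, with 1 at an unadjusted p under 0.05 (27.4% of all tested genes) and 0 called in the authors' deposited table. That gene was Maged2, at 727 ± 32.6 and 880 ± 29.7 TPM (adjusted p = 0.0778), and the most abundant was Maged1, at 1484 ± 149 and 1471 ± 56.7 TPM.

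In bulk tissue, fewer cells of a type and less RNA per cell cannot be told apart. All 11 markers of urogenital mesenchyme and all 11 of the duct epithelium were in the table, each at 1 TPM or more in at least one library. The summed mesenchymal markers, led by Col1a1, overlapped between groups (6685 to 8583 TPM in controls, 7257 to 9392 TPM in Gata2cKO). Of the 11, 5 fell and 1 rose in limma, where 1.74% of all tested genes fell and 5.73% rose. The 5 lower calls were lost in 0 to 5 of the 6 removals of a library, and the 1 higher call in 5. The marker lists were chosen with earlier results of these data known, so these counts are descriptions. The summed epithelial markers, led by Krt18, were higher in Gata2cKO (870 to 949 against 1081 to 1094 TPM). Of these 11, 9 had a positive and 2 a negative log2 fold change, and 2 rose. Those 2 calls were lost in 4 and 5 of the 6 removals. The 9 endothelial markers, led by Sox18, summed to 323 to 424 TPM in controls and 459 to 557 TPM in Gata2cKO. Of the 9, 3 rose, with calls lost in 1, 2 and 5 of the 6 removals. The part of these shifts in the levels of Mest, Peg3, Grb10 and Plagl1 was not tested. Summed red blood cell markers, led by Hba-a1, overlapped (6873 to 18288 and 10529 to 13834 TPM). The highest sum was that of control replicate 1, against 6873 and 7824 TPM in control replicates 2 and 3. Of 9 skeletal muscle markers 4 were in the table, summing to 13.01 TPM in control replicate 1 and at most 4.33 TPM in any other library. The part of these differences in the results that turn on control replicate 1 was not tested. Of 11 adrenal and Leydig cell markers 4 were in the table, summing to at most 7.71 TPM. Of 7 markers of fat cell precursors 5 were listed, led by Cebpa at 49.9 to 90.6 TPM, with Pparg under 1 TPM in every library. Their sum was higher in Gata2cKO (63.8 to 85.2 against 89.3 to 115 TPM). Of the 3 tested, 0 passed in limma. The groups overlapped for 2 of these 3, Cebpa among them, where 33.9% of all tested genes had groups apart. The 6 of 8 neuronal and glial markers in the table, led by Stmn2, summed to 20.5 to 31.5 TPM. Gata2 itself was at 465 ± 81.2 and 459 ± 61.9 TPM (limma adjusted p = 0.968). A gene-level value does not show which exons the RNA holds, so it does not check the labels. Why the level was alike in the groups was not tested. Osr2 fell from 261 ± 54.1 to 127 ± 9.35 TPM (adjusted p = 0.0136, and 0.0605 and 0.0604 without Gata2cKO replicates 1 and 3). Read depth is unknown, since TPM keeps none.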

How the data were processed

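The deposited table holds 1 value per gene and library, taken to be TPM made by the authors because each library sums to between 997351 and 998844 and low values show no common step. It also holds the authors' deposited log2 fold change, p-value and adjusted p-value. Per the submitters' processing notes, the tools and build listed are STAR 2.7.11a, DESeq2, DESeq and GRCm38, without their roles. The sources used here name no quantifier, gene filter or strand setting.

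Columns were matched to samples by library name. The 12300 of 14366 genes that reached 1 TPM in 3 or more libraries were fitted on log2(TPM + 1) with a group term in limma 3.58.1 (limma-trend, R 4.3.3), two-sided, with Benjamini-Hochberg adjustment over all 12300 and a threshold of 0.05. The model was checked on simulated data. The fit was repeated under 7 other settings and without each of the 6 libraries. Except where the filter itself was varied, these repeats used the same 12300 genes (12289 where the mitochondrial genes were left out); a first run had filtered each repeat anew, and the gene set was fixed after its counts were seen, with no change in the members' calls. The members and lists were chosen with earlier results of these data known. Named genes were the members, for each list the called genes with the smallest adjusted p (up to 4 in each direction) and the most abundant gene, or the smallest p where none passed, and the 3 genes most like each member (clone-named genes were dropped from these, 1 kind of name after it had appeared for Ndn). Others are marked as named after their values were seen. Promoters are from RefSeq (GRCm38.p6), and gene positions from GENCODE M21.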

Additional observations from a re-analysis of the deposited data

How the results depend on the processing

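Under the 7 other settings that kept all libraries (a pseudocount of 0.1, no filter, a filter at 5 TPM, median-of-ratios scaling, a total without mitochondrial genes, limma without the trend, and a replicate block) the 7 members kept their direction, Mest stayed past the threshold and the other 6 did not pass. The highest adjusted p of Mest among them was 0.0483, with the replicate block. The block changed no member's call, and its counts were 5 other imprinted genes, 2 neighbours, 1 growth pathway gene and 774 of all genes. Same-numbered libraries correlated at 0.245, -0.0731 and 0.0384 in their deviations from the group means. Differently numbered libraries ran from -0.277 to 0.215. So few values cannot decide whether the numbers pair the samples, and the labels give no pairing. Leaving out 1 library gave 0 or 1 member called, 0 to 5 neighbours, 1 to 9 other imprinted genes, 1 or 2 growth pathway genes and 116 to 1539 of all genes, highest without control replicate 1. The cause was not tested. No member reversed in any removal. Among 20 other named genes followed through these fits, where they passed the filter, 3 changed sign, all near 0 and called in no fit: Cdk4 was at -0.0061 with median-of-ratios scaling, -0.0049 without mitochondrial genes and -0.030 to 0.11 when 1 library was left out, where Maged1 ranged from -0.094 to 0.046 and Gata2 from -0.14 to 0.11 (log2 fold changes). Depth cannot be read from TPM, and with 3 samples a group small differences such as that of Peg3 are not resolved.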
